A study of Ovis aries with 8 samples.

Results

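The genes that make fatty acid from acetate and citrate, with the enzymes that supply the NADPH for it, were examined in the perirenal (kidney) fat of Callipyge and normal lambs. The 9 genes, ACSS2, ACLY, ACACA, ACACB, FASN, IDH1, PGD, ME1 and THRSP, were chosen by function, and 13 of the 24016 probe sets tested on the array carried one of their symbols. Of these genes, 6 had 1 probe set, ACACA and ME1 had 2 each and IDH1 had 3. Where a gene had several, the one with the highest mean over all lambs stood for the gene and the others served as a check.

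Perirenal fat was taken from 4 NmatCpat lambs, labelled Callipyge, and 4 NmatNpat lambs, labelled as wild type, all male, 12 weeks old and of a Dorset/Suffolk/Rambouillet cross-bred strain. NmatCpat lambs carry the Callipyge allele on the chromosome from the sire only, the single combination that shows the muscling trait, and NmatNpat lambs carry the wild type allele from both parents. According to the study's methods the lambs were unweaned and had free access to a pelleted feed of hay and barley. RNA of each lamb was hybridised to 1 Affymetrix array whose probes were designed on cattle sequence, so sheep transcripts that differ from the probes may read low. No probe set used here checks the genotype labels, since the mutation lies between genes. The groups held 4 lambs each, and that number limits the precision of every value below. Intensities are given on the log2 scale after quantile normalisation, and differences are NmatCpat minus NmatNpat. Levels of different probe sets serve only to choose, filter or sum them and to mark bright or dim ones. They are not used to compare amounts of transcript between genes.

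New fatty acid is built in the cytosol from acetyl-CoA. In ruminant fat most of that acetyl-CoA comes from acetate of the rumen, which ACSS2 activates, while ACLY releases it from citrate exported by mitochondria. ACACA and ACACB carboxylate acetyl-CoA to malonyl-CoA, ACACA feeding FASN in the cytosol and ACACB acting at the mitochondrial outer membrane, where malonyl-CoA restrains fatty acid oxidation. FASN draws on NADPH, which IDH1, the pentose phosphate enzyme PGD and ME1 produce. THRSP (Spot 14) is a nuclear and cytosolic protein that rises with lipogenesis in liver, fat and mammary gland.

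The fat cell markers were bright on all 8 arrays, ADIPOQ at 12.81 to 13.29 and FABP4 at 13.63 to 13.74. The array of NmatNpat animal 1 stood apart: the 8 measured of 10 neuron markers summed to 21040 intensity units there, against 189.4 to 542.5 on the other 7 arrays, its actin 3'/5' ratio was 26.1 against 4.04 to 11.8, and its mean correlation with the other arrays was the lowest, at 0.897. The GAPDH 3'/5' ratio of NmatNpat animal 1 did not stand apart, at 1.06 against 0.941 to 1.15 on the other arrays. The array of NmatCpat animal 4 read the 10 measured of 12 skeletal muscle markers on average 1.34 log2 above their mean over the lambs, against -0.61 to 0.16 on the others. By summed intensity that list was highest in NmatNpat animal 4 (6813 units, against 5999 in NmatCpat animal 4), so the 2 measures pick different arrays. For ACACA, ACACB, ACLY, IDH1 and THRSP, differences without 1 or both of these arrays are given below. Other arrays stood apart on principal components, the main axes of variation over all probe sets. NmatCpat animal 2 lay at -106 on the second component, against -9.5 to 40.6 on the other arrays. NmatNpat animal 2 lay at -98.2 on the third, against -1.9 to 63.8. In whole tissue, fewer cells of a type and less RNA per cell cannot be told apart.

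On the brightest probe set, 0 of the 9 genes differed between NmatCpat and NmatNpat fat at a limma P up to 0.05 and a fold change above 1.5, and so did 0 of the 13 probe sets. Over the array, 943 of 24016 probe sets passed both thresholds (3.93%), as did 266 of 9155 genes on their brightest probe set (2.91%), and no probe set of the 9 genes had an adjusted p in limma below 0.983. The differences of 8 of the 9 genes lay above 0, with a median of 0.26, against 50.7% above 0 and a median of 0.0046 over the 9155 genes. The genotypes overlapped in every one of the 9 genes, while 2.84% of all genes did not overlap. ACACA, the cytosolic carboxylase, had the highest difference, at 0.84, and PGD the lowest, at -0.04. For 5 of the 9 genes (ACACB, ACLY, ACSS2, IDH1 and PGD) the 95% interval excluded a 2-fold change in either direction, and for ACACA, FASN, ME1 and THRSP it did not.

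**Figure D1:**
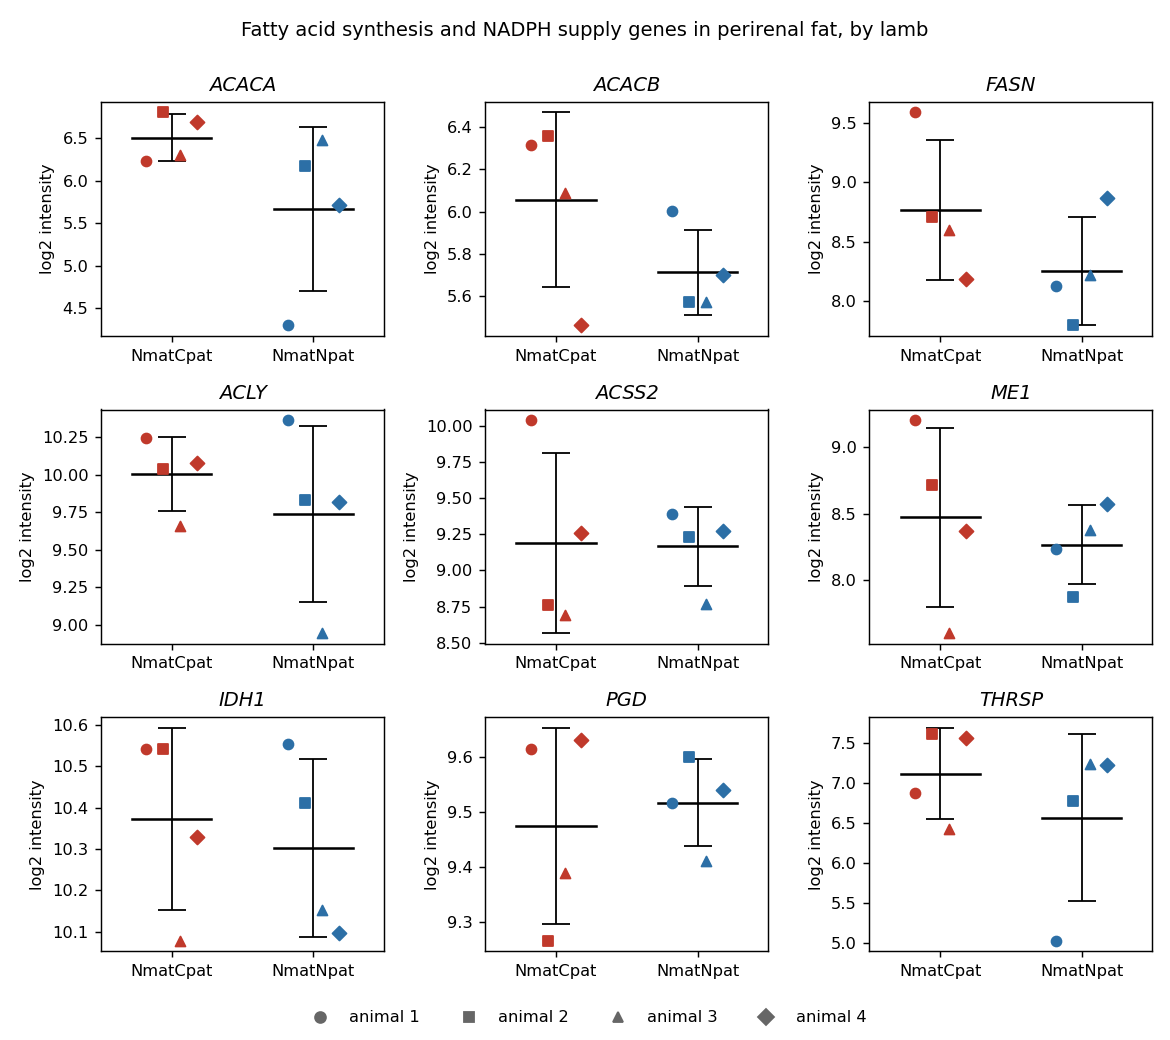
Log2 intensity of the brightest probe set of each of the 9 genes, with 1 marker per lamb (shape gives the animal number), NmatCpat on the left and NmatNpat on the right of each panel; lines and bars are the mean and SD of 4 lambs. The axes differ between panels and do not start at 0. The 2 genotypes overlap in every panel, and NmatNpat animal 1 lies far below the other lambs in ACACA and THRSP.

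ACSS2, which activates acetate, did not separate the genotypes. Its log2 intensity was 10.04, 8.76, 8.69 and 9.26 in NmatCpat animals 1 to 4 and 9.39, 9.23, 8.77 and 9.27 in NmatNpat animals 1 to 4. NmatCpat animal 1 was the highest lamb and NmatCpat animals 3 and 2 the lowest and next lowest, so the NmatNpat lambs lay inside the NmatCpat range. The means were 9.19 ± 0.62 in NmatCpat and 9.17 ± 0.27 in NmatNpat fat (SD, n = 4 each), a difference of 0.02 with a 95% interval of -0.73 to 0.77 (two-sided exact permutation p = 0.943). Without NmatCpat animal 1 the difference was -0.26.

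ACLY, which cleaves citrate, read 10.24, 10.04, 9.66 and 10.08 in NmatCpat lambs and 10.36, 9.83, 8.95 and 9.82 in NmatNpat lambs. NmatNpat animals held both the highest and the lowest value. The means were 10.003 ± 0.25 in NmatCpat and 9.74 ± 0.59 in NmatNpat fat, and the difference was 0.26 (-0.45 to 0.97, exact permutation p = 0.514), or 0.47 without NmatNpat animal 1. It rested on NmatNpat animal 3, the lowest lamb, without which it was -0.0025.

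ACACA had the largest difference of the 9 genes, and its 2 probe sets did not rank the lambs alike. The brighter one read 6.24, 6.81, 6.31 and 6.69 in NmatCpat lambs and 4.30, 6.17, 6.48 and 5.72 in NmatNpat lambs. The 4 NmatCpat lambs lay close together, and NmatNpat animal 1 was far below every other lamb. The means were 6.51 ± 0.28 in NmatCpat and 5.67 ± 0.97 in NmatNpat fat, a difference of 0.84 (1.79-fold, interval 0.86 to 3.75-fold, exact permutation p = 0.114). Without NmatNpat animal 1, whose neuron markers and actin ratio, but not GAPDH ratio, stand apart, the difference was 0.39. Without NmatNpat animal 3 it was 1.11 and passed P and fold, and without NmatNpat animal 1 and NmatCpat animal 4 it was 0.33. The deposited intensities of this probe set ran between 20.9 and 109.9, on arrays whose median was 65.3 to 72.55.

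The dimmer ACACA probe set read 5.87, 6.24, 5.98 and 5.05 in NmatCpat lambs and 5.48, 4.38, 3.74 and 6.005 in NmatNpat lambs. Here NmatNpat animals 2 and 3 were low, and animal 1 was not. Its deposited intensities ran between 12.8 and 72.6, with its mean level at percentile 39.9 of all probe sets. The difference was 0.88 (interval -0.32 to 2.08, exact permutation p = 0.229; 0.49 without NmatNpat animal 3, and 1.25 with a call without NmatNpat animal 4), close to that of the brighter probe set, though the lambs that made it differed. Over the 8 lambs the probe sets did not follow each other (Pearson r = -0.108, exact permutation p = 0.81, adjusted 0.81 over 5 such pairs; Spearman rho = 0.0714, p = 0.882, adjusted 0.882; r = 0.2 without NmatNpat animals 1 and 4).

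Averaging the 2 probe sets gave the one setting over all 8 lambs in which any of the 9 genes passed P and fold. The mean was 6.05, 6.52, 6.14 and 5.87 in NmatCpat lambs and 4.89, 5.28, 5.11 and 5.86 in NmatNpat lambs. Every NmatCpat lamb was above every NmatNpat lamb, with NmatCpat animal 4 and NmatNpat animal 4 next to each other across the gap. The difference was 0.86 ± 0.24 (SE; 1.82-fold, log2 interval 0.30 to 1.42), with an exact permutation p of 0.0286, the smallest that 4 against 4 lambs can give, and an adjusted p in limma of 0.96. The averaged difference passed P and fold whichever lamb was left out, at 0.731 when that was NmatNpat animal 1 and 1.05 when it was NmatNpat animal 4, and with the arrays of NmatNpat animal 1 and NmatCpat animal 4 both left out it was 0.823 and passed. These leave-outs of the averaged value were chosen after seeing the data. When each gene was the mean of its probe sets, 317 of 9155 genes passed (3.46%), and 2.83% did not overlap.

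**Figure D2:**
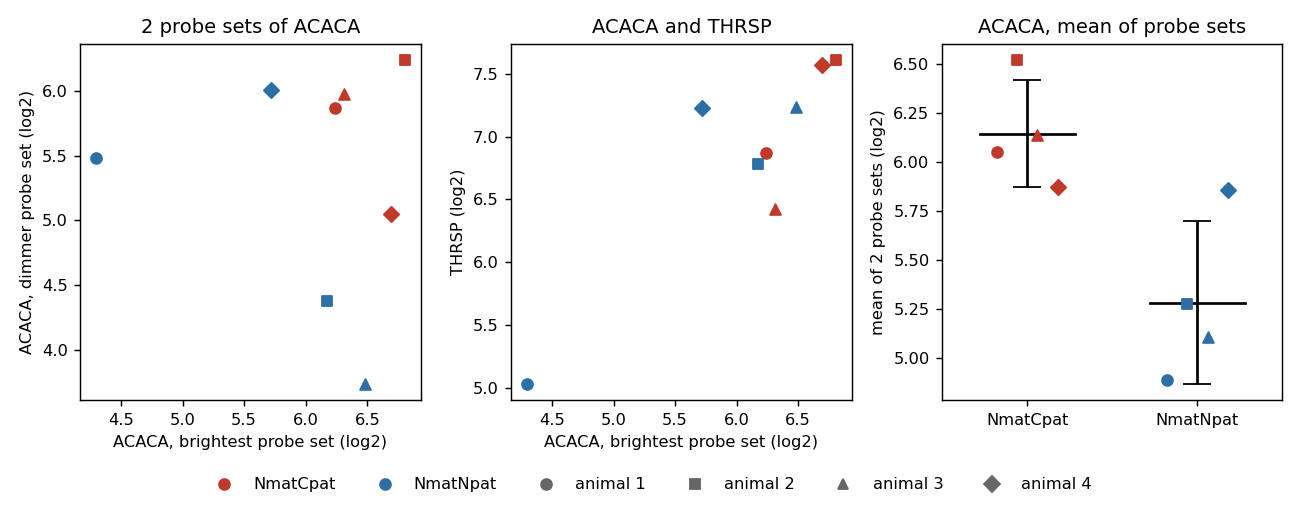
Log2 intensity of ACACA by lamb (colour gives the genotype and shape the animal number). The left panel sets its dimmer probe set against its brightest one (r = -0.108), the middle panel sets THRSP against the brightest one (r = 0.89) and the right panel shows the mean of the 2 probe sets with the mean and SD of each genotype, where every NmatCpat lamb is above every NmatNpat lamb.

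ACACB, the mitochondrial carboxylase, read 6.31, 6.36, 6.09 and 5.46 in NmatCpat lambs and 6.002, 5.58, 5.57 and 5.70 in NmatNpat lambs. NmatCpat animals 1 to 3 were the 3 highest lambs and NmatCpat animal 4 the lowest of all. The means were 6.06 ± 0.41 in NmatCpat and 5.71 ± 0.20 in NmatNpat fat, a difference of 0.34 (-0.21 to 0.90, exact permutation p = 0.229). NmatCpat animal 4 is the array with the highest mean deviation of the muscle list, which summed to 3784 to 5999 units in NmatCpat and 4689 to 6813 units in NmatNpat lambs. Its part in the low ACACB value was not tested. Without NmatCpat animal 4 the difference was 0.54, which passed P but not the fold threshold, without NmatCpat animal 2 it was 0.24, and with the arrays of NmatCpat animal 4 and NmatNpat animal 1 both left out, a choice made after seeing the data, it was 0.64 and passed P and fold.

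FASN, the synthase itself, read 9.59, 8.70, 8.60 and 8.18 in NmatCpat lambs and 8.12, 7.79, 8.22 and 8.87 in NmatNpat lambs. NmatCpat animal 1 was the highest by a clear margin and NmatNpat animal 4 came next. The means were 8.77 ± 0.59 in NmatCpat and 8.25 ± 0.45 in NmatNpat fat, a difference of 0.52 (1.43-fold, interval 0.81 to 2.51-fold, exact permutation p = 0.257). Without NmatCpat animal 1 the difference was 0.24, and without NmatNpat animal 4 it was 0.72.

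Among the NADPH enzymes, PGD, which oxidises 6-phosphogluconate, was the steadiest gene of the 9. It read 9.61, 9.27, 9.39 and 9.63 in NmatCpat lambs and 9.52, 9.60, 9.41 and 9.54 in NmatNpat lambs. The 8 lambs lay within a 1.29-fold range. The difference was -0.04 (interval -0.41 to 0.32, exact permutation p = 0.686), which excludes a change beyond 0.75-fold or 1.25-fold.

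IDH1, the cytosolic isocitrate dehydrogenase, read 10.54, 10.54, 10.08 and 10.33 in NmatCpat lambs and 10.55, 10.41, 10.15 and 10.10 in NmatNpat lambs for its brightest measurement. The genotypes covered nearly the same range, and the difference was 0.07 (-0.37 to 0.51, exact permutation p = 0.743), or 0.15 without NmatNpat animal 1. A dimmer probe set read 10.46, 10.52, 10.52 and 9.79 in NmatCpat lambs and 10.12, 10.39, 9.83 and 9.98 in NmatNpat lambs. Here 3 NmatCpat lambs were the highest and NmatCpat animal 4 was the lowest of all, for a difference of 0.24, or 0.42 without NmatCpat animal 4. The dimmest one read 9.95, 10.37, 10.47 and 9.56 in NmatCpat lambs and 9.98, 9.93, 9.30 and 9.79 in NmatNpat lambs, for a difference of 0.34, or 0.51 without NmatCpat animal 4 and 0.19 without NmatNpat animal 3. These dimmer probe sets followed each other over the lambs (r = 0.877, exact permutation p = 0.00171, adjusted 0.00856 over 5 pairs; rho = 0.905, p = 0.00456, adjusted 0.0228; r = 0.729 without NmatCpat animal 4 and NmatNpat animal 3). Neither followed the brightest one as closely over all lambs, with r of 0.358 and 0.214 (exact permutation p = 0.363 and 0.595, adjusted 0.606 and 0.743; rho = 0.0838 and 0.216), though r was 0.766 and 0.896 without NmatCpat animal 3 and NmatNpat animal 4.

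ME1, the cytosolic malic enzyme, read 9.21, 8.72, 7.60 and 8.37 in NmatCpat lambs and 8.24, 7.88, 8.38 and 8.58 in NmatNpat lambs. NmatCpat lambs held the 2 highest values and the lowest. The difference was 0.21 (-0.60 to 1.01, exact permutation p = 0.629), and without NmatCpat animal 1 it was -0.04. On the dimmer ME1 probe set the values were 5.93, 6.40, 4.95 and 5.69 in NmatCpat lambs and 5.78, 5.80, 6.21 and 6.48 in NmatNpat lambs, a difference of -0.32 (-1.09 to 0.44), or -0.06 without NmatCpat animal 3. Both probe sets were lowest in NmatCpat animal 3, and they gave an r of 0.661 (exact permutation p = 0.075, adjusted 0.187; rho = 0.738, p = 0.0458, adjusted 0.115; r = 0.739 without NmatCpat animals 1 and 3). The sign of the ME1 difference depended on the probe set.

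THRSP, the lipogenic regulator, read 6.87, 7.61, 6.43 and 7.57 in NmatCpat lambs and 5.03, 6.78, 7.23 and 7.23 in NmatNpat lambs. NmatNpat animal 1 was far below the rest, and the other 3 NmatNpat lambs lay inside the NmatCpat range. The means were 7.12 ± 0.57 in NmatCpat and 6.57 ± 1.05 in NmatNpat fat, a difference of 0.55 (1.46-fold, interval 0.62 to 3.46-fold, exact permutation p = 0.457). Without NmatNpat animal 1 it was 0.04, and without that array and NmatCpat animal 4 it was -0.11.

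**Figure D3:**
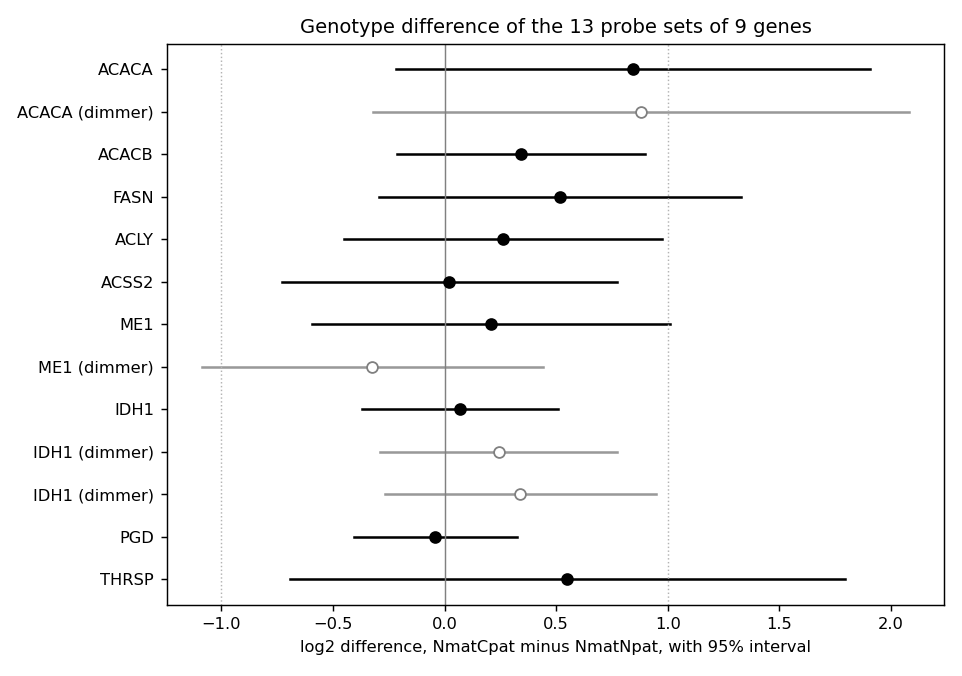
Difference NmatCpat minus NmatNpat in log2 intensity, with its 95% interval from limma, for the 13 probe sets of the 9 genes; filled points are the brightest probe set of a gene and open points the dimmer ones. Every interval includes 0, 11 of the 13 differences are above 0, and dotted lines mark a 2-fold change.

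The spread among lambs differed widely between the genes. The highest lamb over the lowest was 5.96-fold in THRSP and 5.70-fold in ACACA, and in both the lowest was NmatNpat animal 1. It was 3.48-fold in FASN, 3.03-fold in ME1, 2.67-fold in ACLY and 2.54-fold in ACSS2, against 1.86-fold in ACACB, 1.39-fold in IDH1 and 1.29-fold in PGD. NmatCpat animal 1 was the highest lamb for FASN, ACSS2 and ME1, and all 9 genes were above their mean over the lambs in it. In NmatCpat animals 2, 3 and 4 the count above the mean was 7, 3 and 6, and in NmatNpat animals 1 to 4 it was 5, 4, 3 and 5.

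**Figure D4:**
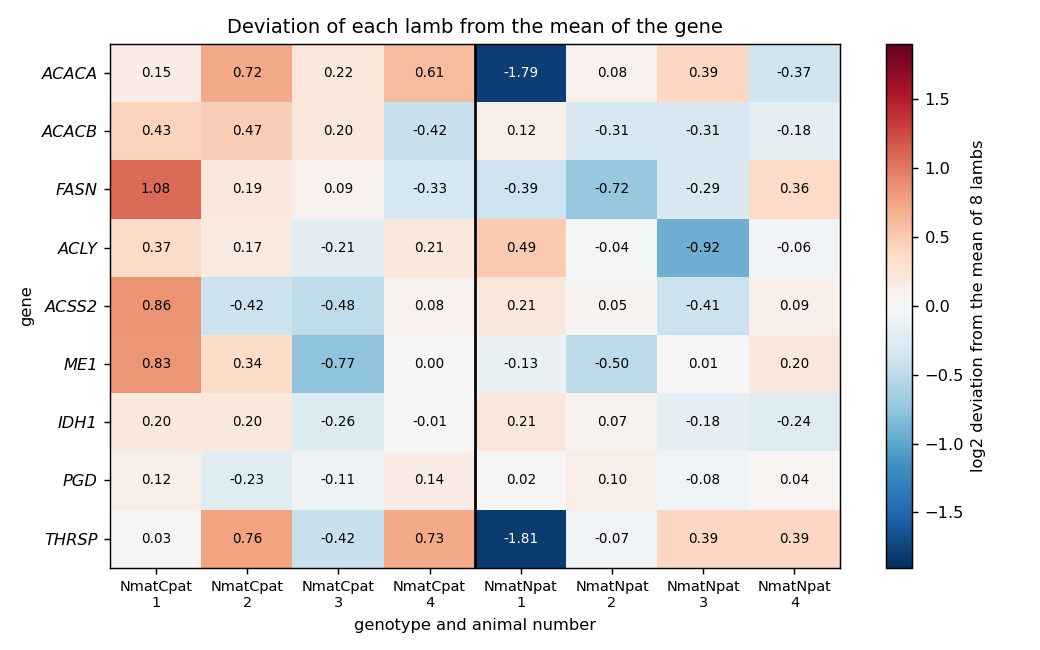
Deviation of each lamb from the mean of the gene over the 8 lambs (log2; red above, blue below), with genes in rows and lambs in columns, the 4 NmatCpat lambs to the left of the line. NmatCpat animal 1 is above the mean in all 9 genes, and NmatNpat animal 1 is 1.79 below it in ACACA and 1.81 below it in THRSP.

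Over the lambs, no pair of the 9 genes passed a correlation test after adjustment. The 36 pairs had a median r of 0.18 over the 8 lambs and 0.15 within genotypes, 24 pairs were above 0, and 3 had an exact permutation p of at most 0.05 and 0 did once adjusted over the 36. The median r was 0.02 without NmatCpat animal 1 and 0.32 without NmatNpat animal 1. The closest pair was ACACA and THRSP (r = 0.89, exact permutation p = 0.0186, adjusted 0.337; rho = 0.786, p = 0.0279, adjusted 0.5). It gave 0.895 within genotypes and 0.884 without NmatNpat animals 1 and 4, but 0.466 without NmatNpat animal 1, the lowest lamb of both genes, 0.333 without that array and NmatCpat animal 4, and 0.578 with ACACA as the mean of its probe sets. ACSS2 and PGD gave r = 0.77 (exact permutation p = 0.0279, adjusted 0.337; rho = 0.69, p = 0.0694, adjusted 0.5), 0.786 within genotypes and 0.83 without NmatCpat animals 1 and 3, but 0.48 with arrays centred on their medians in place of quantile normalisation. ACLY and IDH1, which act on citrate and isocitrate, gave r = 0.712 (exact permutation p = 0.0281, adjusted 0.337; rho = 0.838, p = 0.0131, adjusted 0.471), 0.703 within genotypes and 0.798 without NmatNpat animals 1 and 3, and 0.541 with IDH1 as the mean of its probe sets. FASN and ME1 gave r = 0.711 (exact permutation p = 0.0504, adjusted 0.453; rho = 0.738, p = 0.0458, adjusted 0.5), 0.708 within genotypes, but 0.394 without NmatCpat animal 1, 0.166 without that lamb and NmatNpat animal 2, and 0.493 with ME1 as the mean of its probe sets.

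The genes whose pattern over the 8 lambs was most like that of FASN were not lipogenic enzymes. Among 6332 genes at or above the median level, the highest r with FASN belonged to PSIP1 (a chromatin-binding coactivator, 0.941), SCARB1 (the HDL receptor, 0.925), CNN1 (a smooth muscle calponin, 0.922), GSTO1 (a glutathione transferase, 0.922), GRHL1 (an epithelial transcription factor, 0.921), RNF135 (a ubiquitin ligase, 0.918), COX8A (a respiratory chain subunit, 0.916) and NAPRT (an NAD synthesis enzyme, 0.915). These are the top of a ranking over 8 lambs and carry no test, and 5% of the genes ranked had an r above 0.599. Of the other 8 genes of the pathway studied here, ME1 would rank 143 and ACSS2 719, and ACLY, THRSP, ACACA, IDH1 and PGD 1682, 1907, 2175, 2674 and 3413; ACACB lay under the level limit. SREBF1, the transcription factor known to drive FASN, gave r = 0.438 (rank 809) with a higher rho of 0.762. MID1IP1, the partner of THRSP that binds acetyl-CoA carboxylase, gave r = -0.681 (rho = -0.690). SLC25A1, the mitochondrial citrate carrier, gave r = -0.541 (rho = -0.619).

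Around the 9 genes, 67 of 81 listed genes of the pathway had a named probe set, and 3 of the 67 passed P and fold, while 2.91% of all genes did. Of these, 2 were higher in NmatCpat fat (1.39% of all genes) and 1 was lower (1.52%). Their differences were above 0 in 42 and below 0 in 25, with a median of 0.06. The genotypes did not overlap in 4 of them (2.84% of all genes), and 0 had an adjusted p in limma of at most 0.05 (0% of all genes), while 5 had an unadjusted one (3.79%).

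In the acetyl-CoA supply list 1 of 11 genes passed P and fold as higher in NmatCpat fat and none as lower. PC, the pyruvate carboxylase that refills mitochondrial oxaloacetate for citrate, read 8.94, 8.11, 8.66 and 9.003 in NmatCpat lambs and 8.10, 8.32, 7.54 and 7.89 in NmatNpat lambs. NmatCpat animal 2 was below NmatNpat animal 2, so the genotypes overlapped by that lamb. The difference was 0.71 (1.64-fold, limma P = 0.0276, adjusted p = 0.983; exact permutation p = 0.0571). Dimmer PC probe sets gave -0.30 and 0.000925, the mean of the 3 gave 0.14, and PC did not pass in 9 of 21 alternatives. SLC25A1 averaged 7.39 ± 0.11 in NmatCpat and 7.64 ± 0.50 in NmatNpat fat, a difference of -0.24 (-0.85 to 0.36) that was -0.02 without NmatNpat animal 2.

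In the list of other NADPH enzymes 1 of 11 genes passed P and fold as higher in NmatCpat fat and none as lower. The gene that passed is an aminotransferase and does not itself produce NADPH. GOT1, the cytosolic aspartate aminotransferase that yields oxaloacetate for the malate cycle, read 5.66, 5.55, 6.21 and 6.05 in NmatCpat lambs and 4.37, 5.06, 5.77 and 4.12 in NmatNpat lambs. NmatNpat animal 3 lay within the NmatCpat range and the other 3 below it. The difference was 1.04 (2.06-fold, limma P = 0.0246, adjusted p = 0.983; exact permutation p = 0.0857), and it did not pass in 6 of 20 alternatives. GOT1 was dim, at 16.8 to 72.8 units, with its mean level at percentile 40 of all probe sets. With 16 units added before log2 the GOT1 difference was 0.72 and passed P and fold.

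None of the 17 measured regulators of lipogenic transcription passed P and fold. NR1H2 (LXR beta), which had the smallest p of the list, averaged 8.05 ± 0.18 in NmatCpat and 8.43 ± 0.09 in NmatNpat fat without overlap, a difference of -0.38 (0.77-fold, limma P = 0.0471, adjusted p = 0.983; exact permutation p = 0.0286). SREBF1 gave 0.27 (-0.35 to 0.90) on its brightest probe set, 0.01 as the mean of its probe sets and 0.11 without NmatCpat animal 2. MLXIPL (ChREBP), which couples glucose to lipogenic genes, gave -0.07 (-0.44 to 0.30), or -0.30 as the mean of its probe sets. INSIG1, which holds SREBP precursors in the endoplasmic reticulum, read 11.14, 10.22, 11.52 and 11.77 in NmatCpat lambs and 11.50, 11.69, 11.91 and 12.29 in NmatNpat lambs. NmatCpat animals 1 and 2 were below every NmatNpat lamb and the other 2 were not, for a difference of -0.68 (-1.51 to 0.14) that was -0.37 without NmatCpat animal 2 and passed P and fold in 4 of 21 alternatives.

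None of 7 measured genes that control acetyl-CoA carboxylase passed. MID1IP1 averaged 9.22 ± 0.22 in NmatCpat and 9.44 ± 0.25 in NmatNpat fat, a difference of -0.22 (-0.67 to 0.24). PRKAA2, a catalytic subunit of the kinase that inhibits the carboxylases, had the smallest p of the list with a difference of -1.19 (-3.14 to 0.76), from intensities of 1.4 to 21.5 units. That difference was -0.255 with 16 units added to the intensity before log2, -0.53 without NmatCpat animal 2 and -1.83, past P and fold, without NmatCpat animal 4. PRKAG1, a regulatory subunit of the same kinase named here after its values were seen, did not overlap between the genotypes. Its difference was 0.15 (-0.17 to 0.48, limma P = 0.308, exact permutation p = 0.0286). In mitochondrial fatty acid synthesis, a separate route that makes the lipoate precursor, 1 of 9 genes passed P and fold as lower in NmatCpat fat and none as higher. MECR, its enoyl reductase, read 3.99, 4.36, 2.36 and 3.52 in NmatCpat lambs and 5.80, 4.05, 4.09 and 6.10 in NmatNpat lambs, a difference of -1.45 (limma P = 0.0484, adjusted p = 0.983; exact permutation p = 0.114). It was dim, at 5.3 to 65.6 units, the genotypes overlapped, and it did not pass in 10 of 20 alternatives; with 16 units added before log2 the difference was -0.82.

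None of 12 measured genes that use the new fatty acid passed P and fold, and 10 of their differences were above 0. ACSL5, an acyl-CoA synthetase, read 7.94, 7.85, 7.99 and 7.93 in NmatCpat lambs and 7.69, 7.03, 7.34 and 7.59 in NmatNpat lambs. All NmatCpat lambs were above all NmatNpat lambs, and the difference was 0.51 (1.43-fold, interval 1.06 to 1.93-fold, limma P = 0.0259, adjusted p = 0.983; exact permutation p = 0.0286), under the fold threshold. ELOVL5, a fatty acid elongase named here after its values were seen, went the other way, at 10.24, 10.49, 10.40 and 10.50 in NmatCpat lambs and 10.69, 10.62, 10.64 and 10.70 in NmatNpat lambs. All NmatCpat lambs were below all NmatNpat lambs, and the difference was -0.25 (0.84-fold, exact permutation p = 0.0286; limma P = 0.12). SCD, the stearoyl-CoA desaturase, averaged 8.64 ± 0.41 in NmatCpat and 8.52 ± 0.17 in NmatNpat fat, a difference of 0.12 (-0.42 to 0.66).

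**Figure D5:**
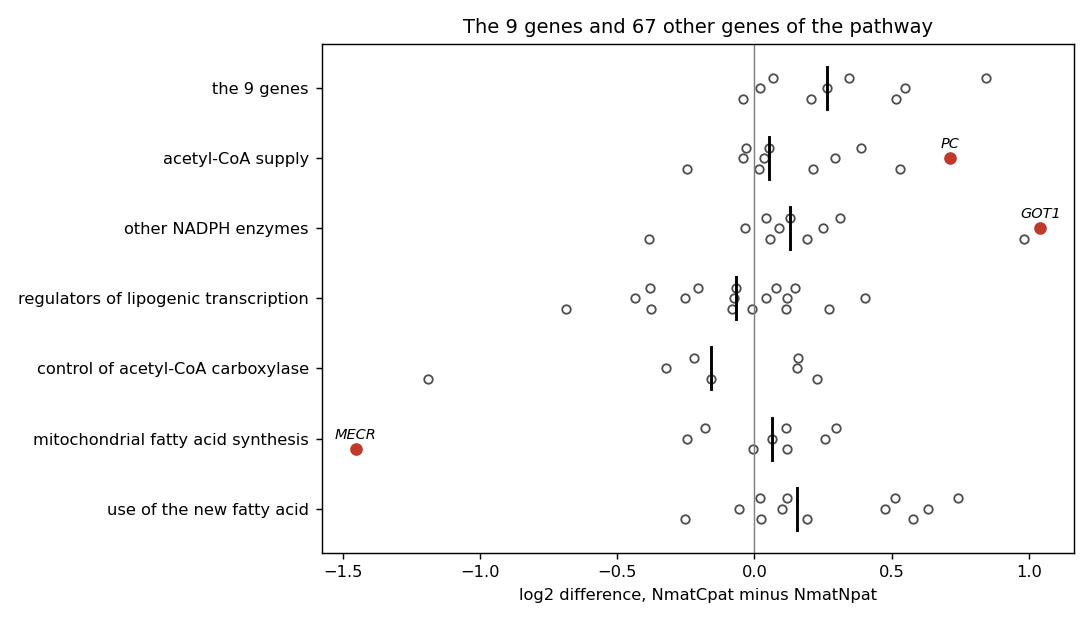
Difference NmatCpat minus NmatNpat in log2 intensity of the 9 genes and the 67 other measured genes of the pathway, by list; each point is a gene on its brightest probe set, filled and named where it passed P and fold, and the bar is the median of the list. PC and GOT1 are higher and MECR is lower in NmatCpat fat, and none of the 9 genes is filled.

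The levels of the 9 genes were also set against 11 lists of cell type markers across the lambs. Each list entered as the mean log2 deviation of its measured genes from their means over the lambs, not as the summed intensities printed below. These measures can order the lambs differently. In the liver list NmatCpat animal 3 had a deviation of 0.367 and a sum of 2352, and NmatCpat animal 4 a deviation of -0.202 and a sum of 2523. Of 99 relations, 9 had an exact permutation p of at most 0.05 and 0 did after adjustment. IDH1 entered as the brightest of its probe sets, with which its dimmer ones had r of 0.358 and 0.214 over all lambs. These dimmer ones were not set against any list. IDH1 gave r = -0.90 with the macrophage list (exact permutation p = 0.00873, adjusted 0.415; rho = -0.874, p = 0.00754, adjusted 0.265; -0.909 within genotypes; -0.828 without NmatCpat animal 1 and NmatNpat animal 1). ACLY gave r = -0.741 with the same list (exact permutation p = 0.0164, adjusted 0.415; rho = -0.857, p = 0.0107, adjusted 0.265; -0.773 within genotypes; -0.546 without the same 2 lambs). The 6 measured of 8 macrophage markers summed to 1580 to 4099 units in NmatCpat lambs and 1633 to 3973 units in NmatNpat lambs, with animals 1 and 2 of each genotype below animals 3 and 4. No value in the table was 0, the lowest being 0.1, and the part of these cells in the IDH1 and ACLY levels was not tested.

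ACACB gave r = 0.786 with the 7 measured fat cell markers (exact permutation p = 0.0251, adjusted 0.415; rho = 0.81, p = 0.0218, adjusted 0.359; 0.866 within genotypes; 0.548 without NmatCpat animals 2 and 4), which summed to 30490 to 35710 units in NmatCpat and 31390 to 33050 units in NmatNpat lambs. THRSP gave r = -0.80 with the 8 liver markers (exact permutation p = 0.00541, adjusted 0.415; rho = -0.881, p = 0.00724, adjusted 0.265; -0.817 within genotypes; -0.581 without NmatCpat animal 3 and NmatNpat animal 1), which summed to 2151 to 2523 units in NmatCpat and 2229 to 2762 units in NmatNpat lambs. It gave r = 0.878 with the 8 endothelial markers (exact permutation p = 0.0227, adjusted 0.415; rho = 0.643, p = 0.0962, adjusted 0.706; 0.861 within genotypes) and 0.277 without NmatNpat animals 1 and 2. All ACACA values here are of its brightest probe set, which the dimmer one did not follow over the lambs (r = -0.108). The dimmer ACACA probe set was not set against any list. ACACA gave r = -0.714 with the liver list (exact permutation p = 0.0241, adjusted 0.415; rho = -0.81, p = 0.0218, adjusted 0.359; -0.79 within genotypes; -0.871 without NmatCpat animal 3 and NmatNpat animal 1). It gave r = 0.836 with the 6 measured of 8 red cell markers (exact permutation p = 0.0334, adjusted 0.472; rho = 0.524, p = 0.197, adjusted 0.738; 0.747 within genotypes), but -0.155 without NmatCpat animal 2 and NmatNpat animal 1. It gave r = -0.862 with the 7 measured of 8 T and B cell markers (exact permutation p = 0.0435, adjusted 0.479; rho = -0.595, p = 0.132, adjusted 0.728; -0.826 within genotypes), and -0.42 without NmatCpat animal 3 and NmatNpat animal 1. The red cell markers summed to 199.7 to 306.6 units in NmatCpat and 155.4 to 261.7 units in NmatNpat lambs, and the T and B cell markers to 281.7 to 350.3 units in NmatCpat and 307.9 to 571 units in NmatNpat lambs. ACLY gave r = 0.769 with the 5 measured of 8 kidney markers (exact permutation p = 0.0395, adjusted 0.479; rho = 0.476, p = 0.243, adjusted 0.76; 0.771 within genotypes), but -0.305 without NmatNpat animals 1 and 3; these summed to 222.3 to 274.6 units in NmatCpat and 162.67 to 392.02 units in NmatNpat lambs. ACACA and THRSP gave r of -0.85 and -0.81 with the neuron list (exact permutation p = 0.0865 and 0.0902, adjusted 0.566 each; rho = -0.19 and -0.0476; -0.8 and -0.78 within genotypes), and 0.226 and 0.477 without NmatNpat animals 1 and 3. The neuron markers summed to 197 to 393 units in NmatCpat lambs and 189 to 21040 units in NmatNpat lambs. By mean level, every measured kidney marker lay under the median of all probe sets. So did the red cell markers except HBA, the T and B cell markers except CD3E, and TTR, APOA1, APOA2, FGB and SERPINA1 of the liver list. Whether all these cells were present, and their part in the levels of the 9 genes, was not tested.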

How the data were processed

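Perirenal fat of 8 lambs was profiled on 1 array each. The authors pre-processed the images with MAS5 (from the submitters' processing notes, which carry no version). Per the methods, background correction and quantile normalisation followed. The deposited intensity values are linear and the columns do not share quantiles, so log2 values of all 24128 probe sets were quantile-normalised here, and 112 control probe sets were dropped. Symbols came from the platform annotation, which is old: 13292 probe sets had 1 symbol, 86 several and 10638 none. The other 24016 entered 1 linear model per probe set (lmFit and eBayes of limma 3.58.1, R 4.3.3; Benjamini-Hochberg adjustment), tested on simulated data; calls used P of at most 0.05 and a fold over 1.5, since the paper names a package but no statistic. Each gene was also tested by exact permutation (two-sided, 70 arrangements of the lambs), and each correlation over all 40320 pairings. Figures were drawn with Python 3.11.15.

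The genes and lists were chosen with earlier results of these data known. Named were the 9 genes, in each list the gene with the smallest p and those past both thresholds, 7 further genes (1 of which is not reported here), and the 8 genes most like FASN. Alternatives changed the variances, scaling, offset (16), filter, probe set, threshold and lambs. Leave-outs of averaged or dimmer probe sets, and of the arrays of NmatNpat animal 1 and NmatCpat animal 4 together, were added after seeing the data. Detection calls and sequences were not used here.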

Additional observations from a re-analysis of the deposited data

Results flagged for a closer look

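Of 50 groups of 4 lambs examined (13 probe sets of the 9 genes and 12 named pathway genes, in each genotype), 1 held a lamb far from the others of its genotype. On the middle of the 3 IDH1 probe sets by brightness, NmatCpat animal 4 read 9.792, while NmatCpat animals 1 to 3 read 10.46 to 10.52, and the gap was 0.925 of the range of the group. Chance alone marks about 1 group in 20. The array of this lamb also read the skeletal muscle list on average 1.34 log2 above its mean over the lambs. The genes of that list did not move together there: MYL2 read 7.03 against 0.96 to 3.63 on the other arrays, and CKM 9.22 against 9.63 to 10.25. By summed intensity another array was highest, and the part of the muscle list in the IDH1 value was not tested.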

How the results depend on the processing

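The count over all probe sets was 943 of 24016. It was 626 without moderated variances, 814 with trended robust variances and 244 of 12008 among probe sets at or above the median level. It was 0 at an adjusted p under 0.05 (1118 at P alone) and 979 to 1052 with 1 lamb left out. Of the 9 genes 0 passed. With the mean of all probe sets 1 did, where 317 of 9155 genes did (3.46%). With 1 lamb left out 0 to 1 did. With the arrays of NmatNpat animal 1 and NmatCpat animal 4 left out, a choice made after seeing the data, 1 did. Of the 67 pathway genes 3 passed. With trended robust variances 5 did, 5 at P alone and 0 at an adjusted p. With 1 lamb left out 0 to 5 passed (0 without NmatCpat animal 3 or NmatNpat animal 4), and 5 with both arrays left out. The count over all probe sets with both arrays left out is not given here, so the counts in that setting have no share beside them. The median r of the 36 pairs was 0.18; it was 0.0207 (without NmatCpat animal 1) to 0.321 (without NmatNpat animal 1) with 1 lamb left out and 0.314 with both arrays left out.

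With 1 lamb left out the log2 difference crossed 0 for ACLY (-0.0025 to 0.475; lowest without NmatNpat animal 3), ACSS2 (-0.262 to 0.188; below 0 without NmatCpat animals 1 or 4 or NmatNpat animal 3, at -0.0040 and -0.109 in the last 2 cases), ME1 (-0.0355 to 0.497; lowest without NmatCpat animal 1), IDH1 (-0.00071 to 0.167; lowest without NmatNpat animal 4), PGD (-0.0941 to 0.0284; highest without NmatCpat animal 2), MLXIPL (-0.133 to 0.0119) and SCD (-0.0010 to 0.307), the last pair without NmatCpat animal 4. ME1 was -0.0582 with the mean of its probe sets (-0.2105 to 0.2184 with 1 lamb left out, above 0 without NmatCpat animal 3 and, at 0.0623, NmatNpat animal 4, chosen after seeing the data), and THRSP was -0.114 with both arrays left out. The cause was not tested.

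The labels number the animals in each genotype but do not say that equal numbers are paired, and the main model assumed no pairing. About the genotype means, same-numbered lambs correlated at 0.0388, 0.00541, 0.048 and -0.0131 for animals 1, 2, 3 and 4. Differently numbered lambs of opposite genotype correlated at -0.0584 to 0.0155. NmatCpat animals 1, 2 and 3 correlated most with the NmatNpat lamb of their own number, and NmatCpat animal 4 did not. With the number as a replicate block, 1124 probe sets, 0 of the 9 genes and 3 of the 67 passed, the 3 being GOT1, MECR and INSIG1, while PC did not pass.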
